A study of Mus musculus with 2 samples.

Results

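Vegfa, Vegfb, Angpt1, Hgf, Igf1, Pdgfb, Tgfb1, Thbs1 and Fn1 encode secreted proteins that act on blood vessels and healing tissue. These 9 genes were taken by symbol from the 27998 genes of the count tables, and each symbol matched 1 row. The question was which sorted cells held transcripts of each factor, and how the levels compared between the libraries. The tables come from 2 droplet (10x Genomics) single-cell RNA libraries of YFP+CD11b- cells from mouse hindlimb muscle, 1 made 28 days after hindlimb ischemia surgery (day 28) and 1 without surgery (day 0). Both libraries came from Fsp1-Cre: R26R-EYFP mice, in which the promoter of Fsp1 (S100a4) drives Cre and Cre switches on a YFP label that lasts in the cell and its descendants. Cells with the myeloid integrin CD11b on their surface were left out of both sorts. The number, age and sex of the mice are not given in the sources used here.

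The vascular endothelial growth factors are ligands of receptors on endothelial cells, and Vegfa is the main inducer of vessel sprouting. Angiopoietin 1 steadies new vessels through the receptor Tek, and platelet-derived growth factor B recruits the pericytes that cover them. Hepatocyte growth factor and insulin-like growth factor 1 act on muscle stem cells and fibres, transforming growth factor beta 1 drives matrix production, thrombospondin 1 restrains vessel growth and can activate latent transforming growth factor beta, and fibronectin is a scaffold of the provisional matrix.

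The tables held 2653 barcodes with 38785525 UMIs (unique molecular identifiers, counted molecules) at day 28 and 2668 barcodes with 19574562 UMIs at day 0, while the series text states 5000 captured cells. After filters, 2580 cells at day 28 and 2609 at day 0 remained, with a median of 12214 and 4789 UMIs, and 13 barcodes occurred in both libraries. Clustering without the 9 genes and their pathway partners gave 21 clusters, 16 of which were named "-like" from marker lists. The 5 unnamed clusters, called here by number and leading genes, held 39.7% of cells at day 28 and 24.1% at day 0. Angpt1, Igf1, Pdgfb, Fn1 and Thbs1 each overlap a gene on the opposite strand, and the sources used here do not say whether counting used the strand. Hgf overlaps Gm43489 and Gm42975 and Pdgfb overlaps Mir7213 on its own strand, which strand could not separate. Most cells were of blood lineages: 4 cells at day 28 and 12 at day 0 were fibroblast-like, and the muscle regulators Myod1 and Myf5 were at 0 UMIs in both libraries. Among the blood cells were progenitors of the kind found in bone marrow, with 388 monocyte progenitor-like and 284 neutrophil progenitor-like cells at day 28 and 82 and 58 at day 0. That the measured cells lay in muscle rests on the labels and was not tested, which holds for every level below. With 1 library a group there is no test. Intervals are 95% and cover counting error only, and the surgery, the animals, the sort and the library cannot be told apart. Levels are the summed UMIs of a group of cells as counts per 1000000 of its UMIs (CPM), and ratios are day 28 over day 0.

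The main sources differed between factors. Fn1 and Thbs1 transcripts were concentrated in cluster 0 (Lyz2, Lgals3, Ms4a6c), Angpt1 in cluster 3 (Cd34, Ctsg, Ctla2a), Hgf in basophil or mast cell-like cells and Igf1 in the few fibroblast-like cells. Tgfb1 and Vegfb were found in nearly every kind of cell. The plot of source shares shows this split for both libraries.

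**Figure D1:**
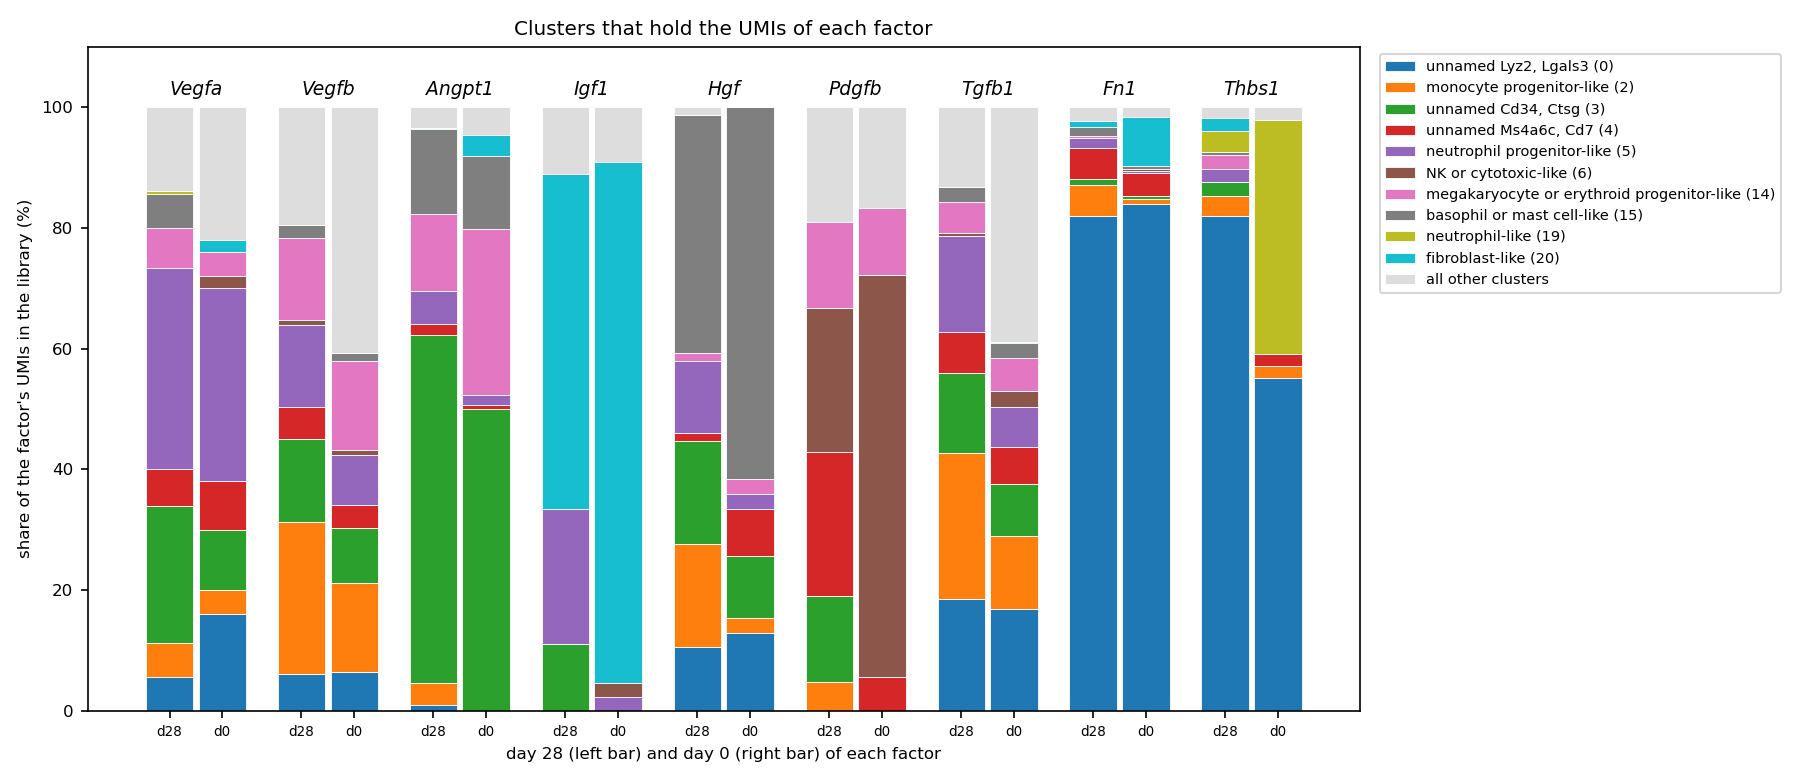
Share of each factor's UMIs (percent, vertical axis) held by 10 clusters and by all other clusters together, at day 28 (left bar) and day 0 (right bar). Cluster 0 held 81.9% of Fn1 UMIs at day 28 and 84.0% at day 0, and the fibroblast-like cluster held 55.6% and 86.4% of Igf1 UMIs.

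Over all kept cells, 4 of the 9 factors reached a mean of 10 CPM and could be read by the rule of a 2-fold difference, and 0 of them passed it, against 5.94% of the 6971 genes at that level. Vegfb had 22.7 CPM at day 28 and 17.4 at day 0, Angpt1 12.5 and 9.17, Tgfb1 294 and 317, and Fn1 59.7 and 52.9. Their ratios ran between 0.925 for Tgfb1 and 1.36 for Angpt1. The other factors were below that level. Vegfa had 5.24 CPM at day 28 and 2.63 at day 0, which gives a ratio of 1.99 (1.45 to 2.77), and Thbs1 had 4.76 and 2.58 CPM, a ratio of 1.84 (1.34 to 2.58). Hgf had 2.04 and 2.05 CPM, Pdgfb 0.564 and 0.948, and Igf1 0.242 and 2.32. The Igf1 ratio was 0.104 (0.0448 to 0.217) on 9 UMIs at day 28 and 44 at day 0. In a sum over cells, more cells of a type and more RNA per cell cannot be told apart.

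The makeup of the sort differed between the libraries, so the day 0 levels of each cluster were also weighted by the UMIs each cluster held at day 28. For Vegfa this makeup alone gave a ratio of 1.69 against the observed 1.99. It gave 1.24 for Vegfb, against the observed 1.30, and 1.16 for Fn1, against 1.13. For Angpt1 it gave 13.7 CPM, above the 12.5 CPM observed at day 28. For Thbs1 and Tgfb1 the direction was the opposite: the makeup alone gave 0.884 for Thbs1, against the observed 1.84, and 1.14 for Tgfb1, against 0.925. Among the factors with few UMIs it gave 1.36 for Hgf, against 0.994, 0.379 for Pdgfb, against 0.595, and 0.301 for Igf1, against 0.104. The part of the makeup in these differences was not tested.

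**Figure D2:**
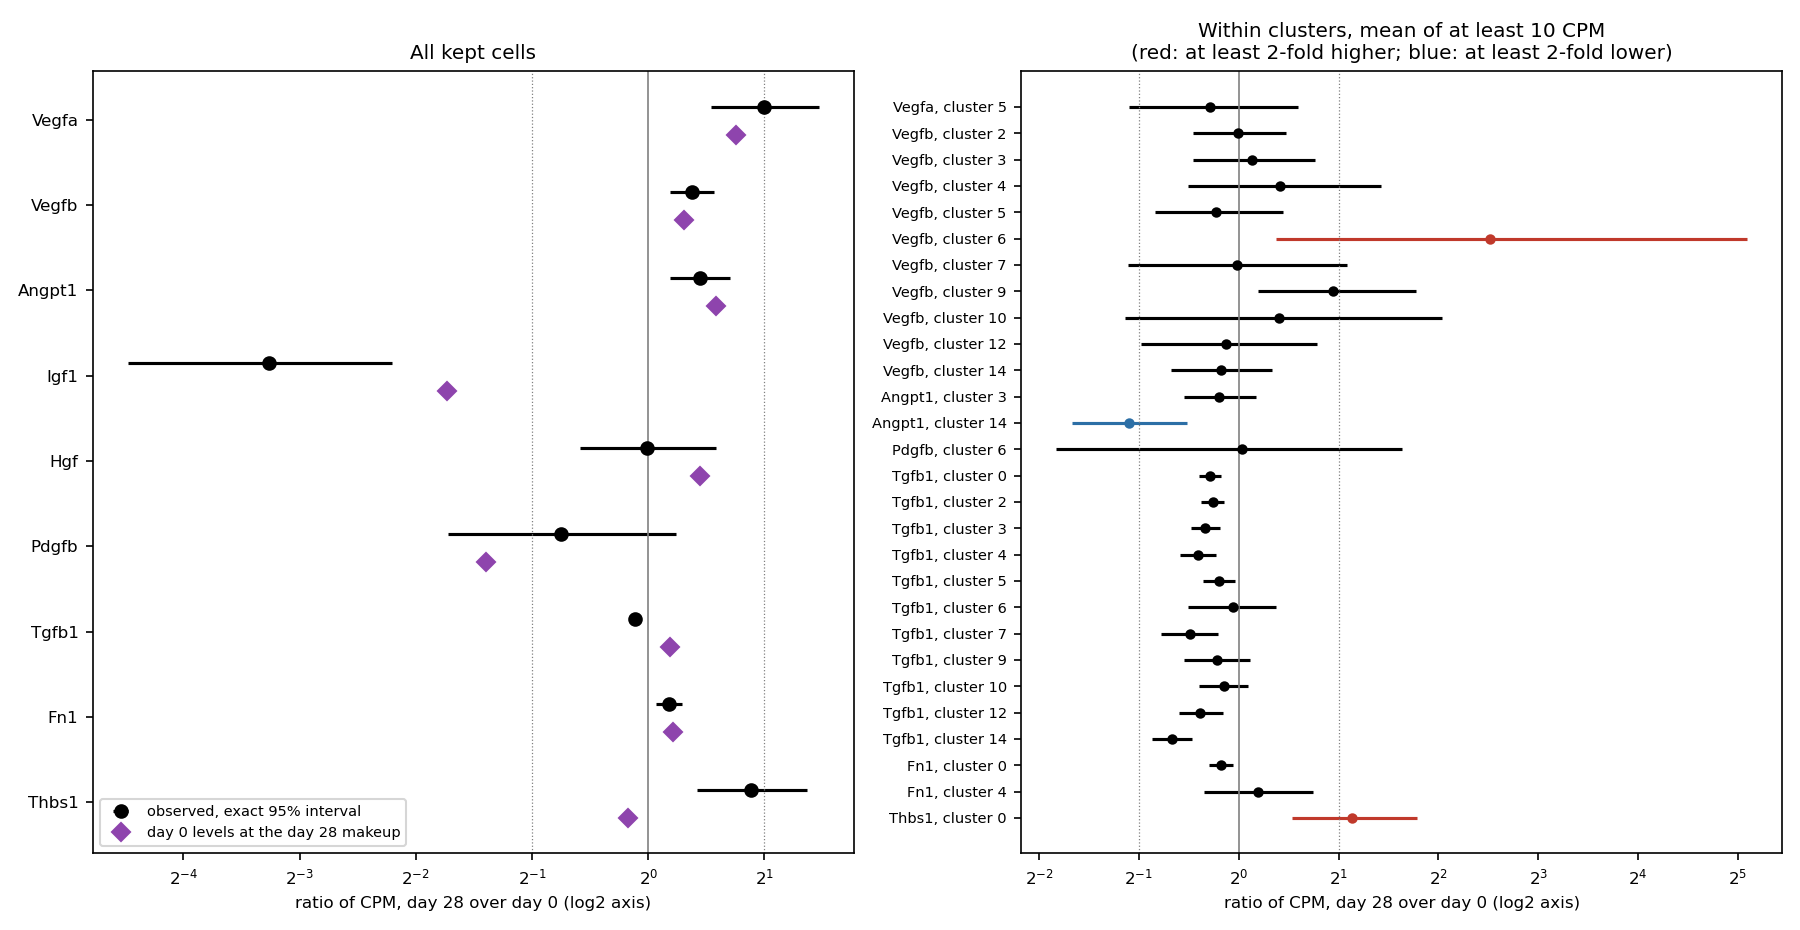
Ratio of CPM at day 28 over day 0 on a log2 axis, for all kept cells (left: circles with exact 95% intervals, diamonds for day 0 levels at the day 28 makeup) and for the 28 factor and cluster pairs at a mean of at least 10 CPM (right, points with exact 95% intervals). Most intervals lie between the dotted 2-fold lines, Tgfb1 lies left of 1 in every cluster, and 3 pairs are coloured as past 2-fold.

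Within the 11 clusters with at least 50 cells in each library, 28 factor and cluster pairs could be read. At least 2-fold differences were found in 3 of them, 2 higher and 1 lower at day 28, against 7.78% of all gene and cluster pairs. They were Thbs1 in cluster 0, Vegfb in natural killer (NK) or cytotoxic lymphocyte-like cells and Angpt1 in megakaryocyte or erythroid progenitor-like cells, and they are described with each factor.

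Vegfa lies on the minus strand of chr17:46016993-46032369 (GRCm38, the mm10 build). Its transcripts were sparse, with 195 UMIs at day 28 and 50 at day 0. Neutrophil progenitor-like cells (Elane, Ctsg, Prtn3) held the largest share, 33.3% of Vegfa UMIs at day 28 and 32.0% at day 0, and were 11.0% and 2.22% of the cells. They also had the highest median depth of the clusters, 22528 UMIs per cell at day 28 and 22413 at day 0, which adds to their share. Their level was 10.1 CPM at day 28 and 12.3 CPM at day 0, a ratio of 0.817 (0.468 to 1.51), so the groups were not separated there. At day 28 cluster 3 came next. It had 44 UMIs at day 28 and 5 at day 0, where cluster 0 had 8 and pro-B or large pre-B cell-like cells had 7. The cluster 3 levels were 10.3 and 4.14 CPM, a ratio of 2.49 whose interval ran from 0.992 to 8.06. Basophil or mast cell-like cells had 11 Vegfa UMIs in 75 cells at day 28 and 0 in 35 cells at day 0. Their day 28 level of 14.2 CPM was the highest among clusters with at least 20 cells. Erythroid-like cells had 3 and 0 UMIs. In the order of Vegfa levels each neighbour overlapped the next in both libraries, so adjacent clusters were not separated. Clusters further apart could be: at day 28 cluster 3 had 10.3 CPM (7.50 to 13.9) and cluster 0 had 1.92 CPM (0.960 to 3.44). At day 0 the intervals of cluster 3 (1.34 to 9.66) and cluster 0 (1.47 to 6.72) overlapped.

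At an equal depth of 3200 UMIs per cell, Vegfa was found in 3.52% of neutrophil progenitor-like cells at day 28 (10 of 284) and 5.17% at day 0 (3 of 58). Without thinning these shares were 21.8% and 24.1%, at a median of 22528 and 22413 UMIs per cell. Erythroid-like cells, set beside each share as a low comparison, had a thinned share of 0 of 132 cells at day 28, which allows up to 2.27% of cells with a UMI at this depth (3 cells of the total), and 0 of 103 at day 0, which allows up to 2.91%. The intervals of both cell types overlap in both libraries, and unthinned 3 of the 132 erythroid-like cells held Vegfa at day 28. Their median depth was 16546 UMIs at day 28 and 9164 at day 0.

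Vegfb, a paralog that binds the receptor Flt1 and is linked to fatty acid uptake by endothelium, lies on the minus strand of chr19:6982473-6987651. Megakaryocyte or erythroid progenitor-like cells (Pf4, Car1) had the highest Vegfb level, 59.5 CPM at day 28 (114 UMIs) and 67.3 CPM at day 0 (49 UMIs), apart from the next cluster in both libraries. The ratio there was 0.884 (0.627 to 1.26). From 8.92 to 29.5 CPM at day 28 and 3.23 to 29.0 CPM at day 0 were measured in the other 10 compared clusters. Vegfb in NK or cytotoxic lymphocyte-like cells was 18.4 CPM at day 28 and 3.23 CPM at day 0, a ratio of 5.71 (1.30 to 34.2) on 7 and 3 UMIs. In that cluster 18.9% of all genes passed 2-fold and 6.42% were higher, so the call stands near the background. Erythroid-like cells had 29.5 CPM of Vegfb at day 28 and 15.3 at day 0, which gives a ratio of 1.92 (1.14 to 3.43) that stayed under 2-fold.

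Vegfb was detected at 3200 UMIs in 13.1% of megakaryocyte or erythroid progenitor-like cells at day 28 (13 of 99) and 7.69% at day 0 (4 of 52). Erythroid-like cells had 8.33% (11 of 132) and 5.83% (6 of 103), within the intervals of the progenitor-like cells. Unthinned, the progenitor-like shares were 53.5% at day 28 and 41.5% at day 0, at 16165 and 8986 UMIs per cell.

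Angpt1, the activating ligand of the endothelial receptor Tek, lies on the minus strand of chr15:42424723-42676977. Cluster 3, which scored highest on the stem or early progenitor list, held 268 of 464 Angpt1 UMIs at day 28 and 87 of 174 at day 0. Its level was 62.9 CPM at day 28 and 72.0 CPM at day 0, a ratio of 0.873 (0.683 to 1.13), so the libraries were not separated. Basophil or mast cell-like cells (Prss34, Mcpt8, Cpa3) stood at a like level, 83.9 CPM at day 28 (65 UMIs) and 65.5 CPM at day 0 (21 UMIs). The intervals of cluster 3 and of the basophil or mast cell-like cells overlapped in both libraries. Outside them and the megakaryocyte or erythroid progenitor-like cells, Angpt1 averaged 6.81 CPM or less in each cluster with at least 20 cells in both libraries. Fibroblast-like cells held 1 Angpt1 UMI at day 28 and 6 at day 0, the 6 in 2 cells.

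In megakaryocyte or erythroid progenitor-like cells Angpt1 had 30.8 CPM at day 28 (59 UMIs in 99 cells) and 65.9 CPM at day 0 (48 UMIs in 53 cells). The ratio was 0.467 (0.314 to 0.699), in a cluster where 11.4% of genes passed 2-fold and 8.33% were lower. The summed markers of that lineage were 2723 CPM at day 28 and 5744 CPM at day 0 there, a ratio of 0.474, with all 11 genes detected in both libraries. Per 1000 marker UMIs, Angpt1 counted 11.3 at day 28 and 11.5 at day 0, which gives a ratio of 0.986, so Angpt1 and the markers differed by the same factor. With coarser clusters (resolution 0.4) these cells were no longer a cluster of their own. The best match had a Jaccard index (shared over all cells) of 0.19 with them and 0.76 with the erythroid-like cells, so its ratio of 1.86 is not for the same cells.

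At equal depth Angpt1 was found in 22.9% of cluster 3 cells at day 28 (72 of 315) and 20.2% at day 0 (23 of 114), and in 21.3% (16 of 75) and 17.1% (6 of 35) of basophil or mast cell-like cells. In megakaryocyte or erythroid progenitor-like cells it was 6.06% at day 28 (6 of 99) and 28.8% at day 0 (15 of 52). Erythroid-like cells had 0 of 132 and 0 of 103. Unthinned shares were 49.8% at day 28 and 39.1% at day 0 in cluster 3, at medians of 11736 and 8634 UMIs.

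**Figure D3:**
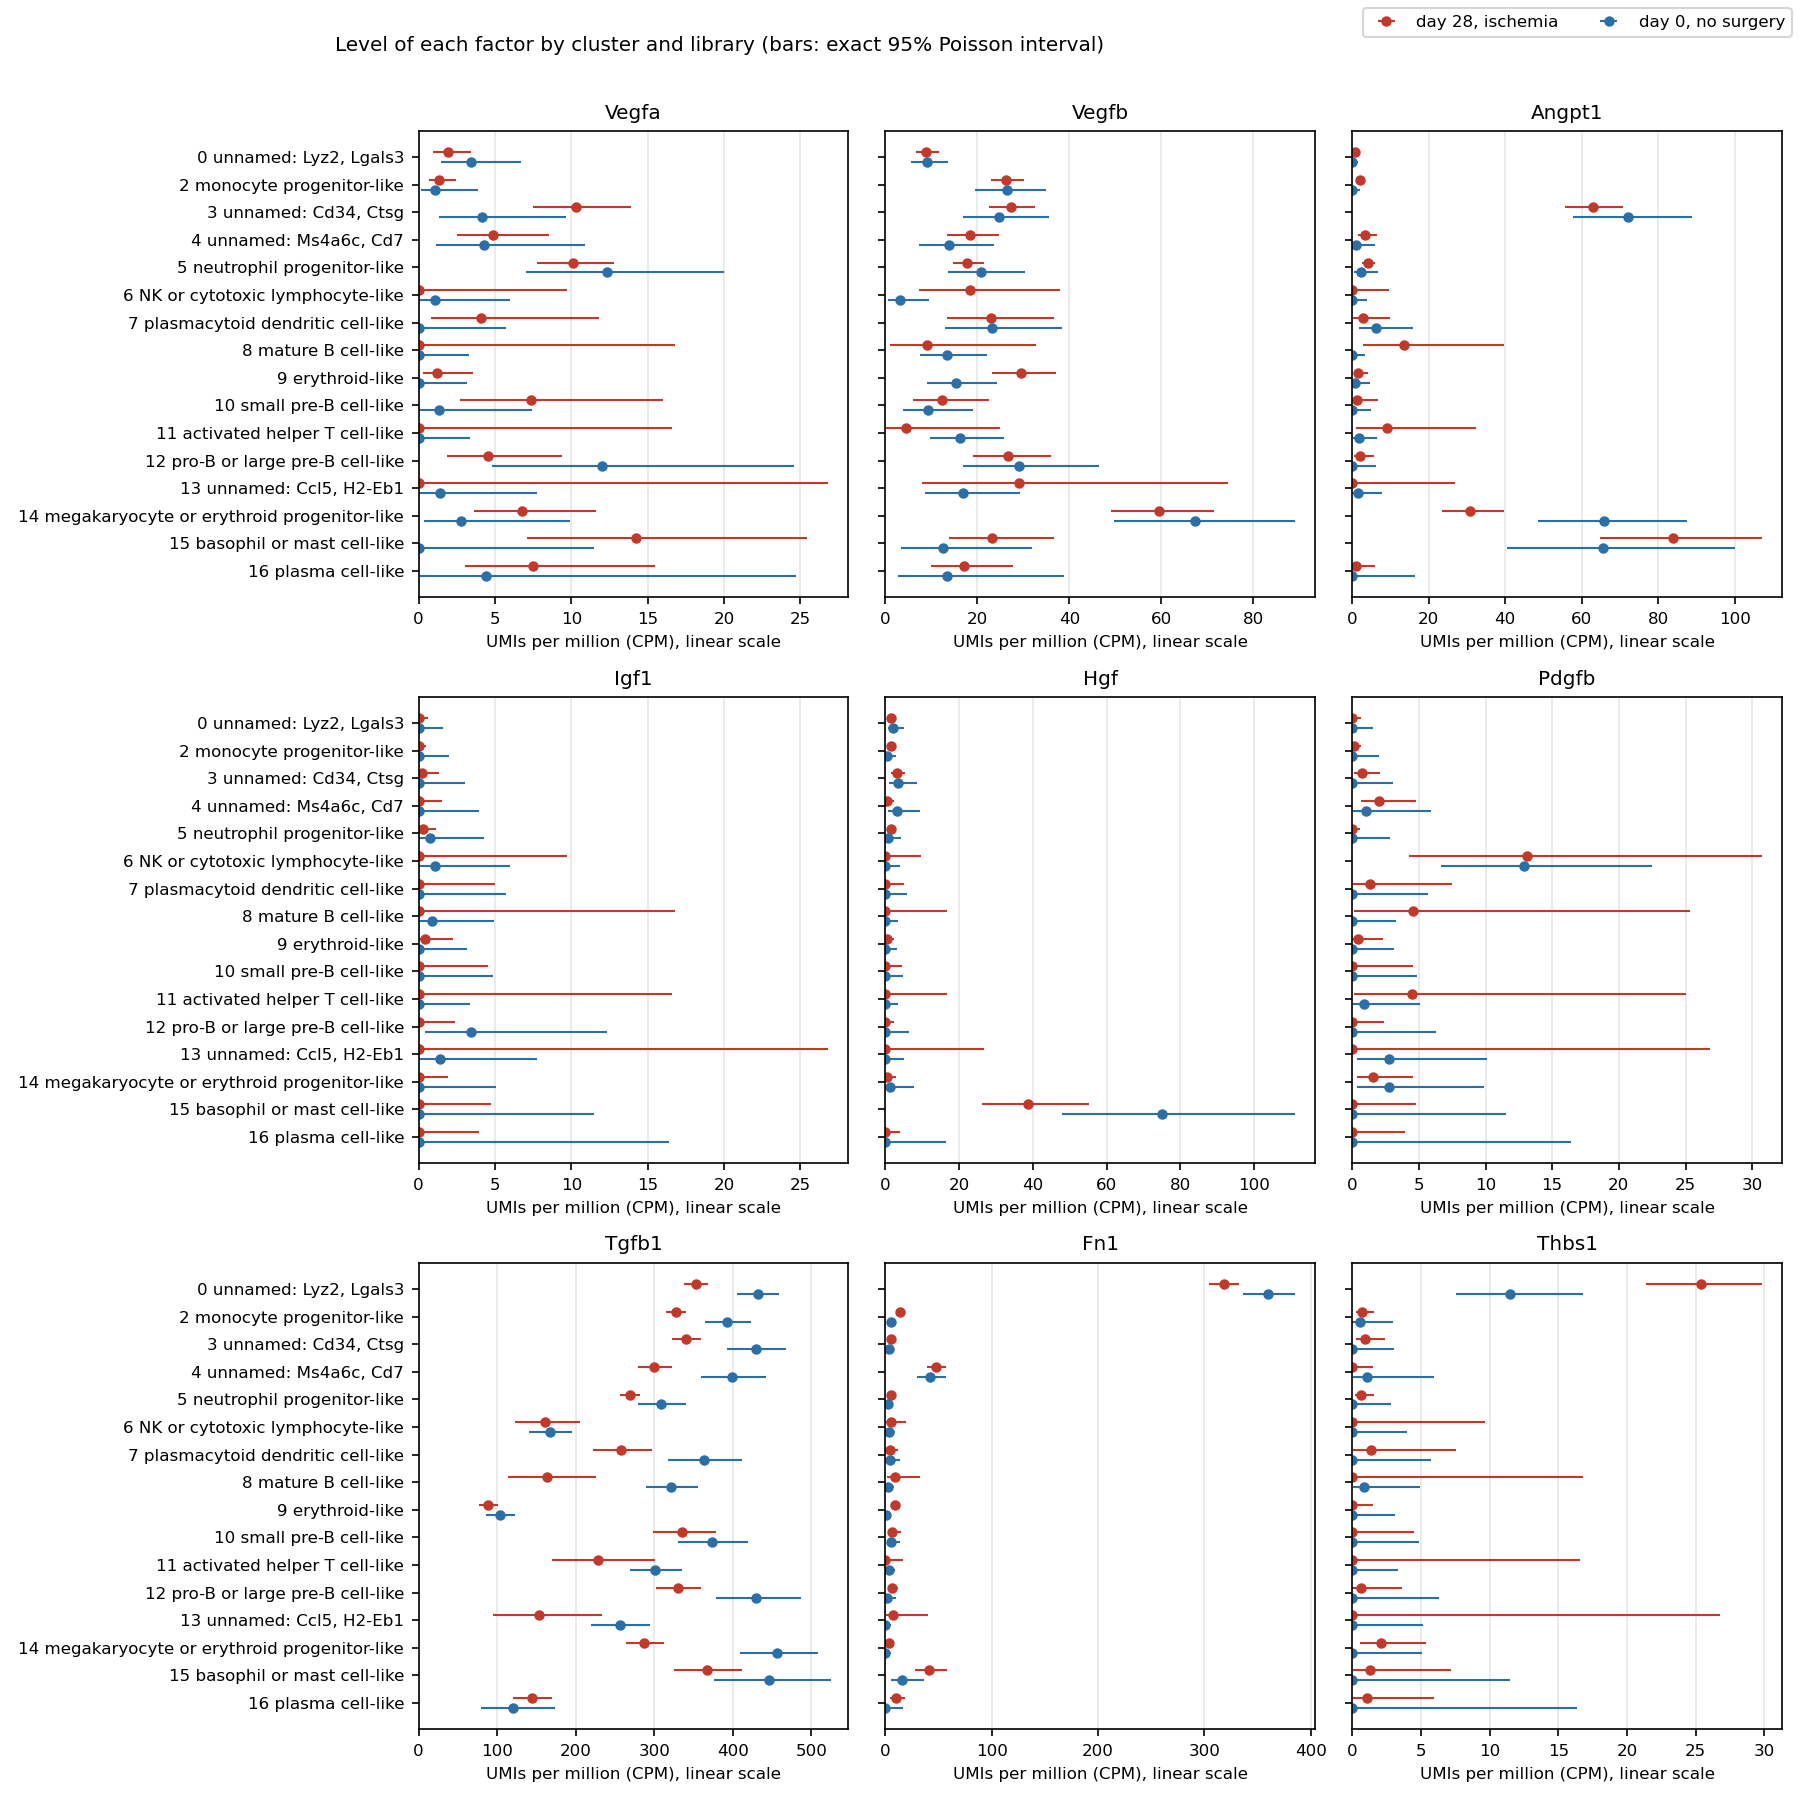
Level of each factor (CPM, linear horizontal axis) in the 16 clusters with at least 20 cells in each library, at day 28 (red) and day 0 (blue), with exact 95% Poisson intervals. Angpt1, Hgf, Fn1 and Thbs1 each stand out in 1 to 3 clusters, while Tgfb1 and Vegfb extend over nearly all.

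Hgf, the ligand of the receptor Met, lies on the plus strand of chr5:16553495-16620152. Basophil or mast cell-like cells were its leading source, with 30 of 76 Hgf UMIs at day 28 (39.5%) and 24 of 39 at day 0 (61.5%), although they were 2.91% and 1.34% of the cells. Their Hgf level was 38.7 CPM at day 28 (interval 26.1 to 55.3) and 74.9 CPM at day 0 (interval 48.0 to 111). Cluster 15 has fewer than 50 cells at day 0, so no ratio is read, and the 2 intervals overlap. In every other cluster with at least 20 cells in both libraries Hgf averaged 3.18 CPM or less. The intervals of basophil or mast cell-like cells and of the next cluster, number 3, did not overlap in either library. Small clusters without Hgf UMIs, such as cluster 13 with 20 cells at day 28, have wide limits and were not all separated. Of the day 0 UMIs in this cluster, 29.2% came from 1 cell.

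Hgf was found at equal depth in 17.3% of basophil or mast cell-like cells at day 28 (13 of 75, 9.57 to 27.8) and 11.4% at day 0 (4 of 35, 3.20 to 26.7). Erythroid-like cells had 0.758% at day 28 (1 of 132) and 0 of 103 at day 0. The exact intervals of both cell types overlap at day 0. Unthinned shares were 32.0% at day 28 and 42.9% at day 0, at medians of 9497 and 8607 UMIs. Both Angpt1 and Hgf were detected in 3 of 75 thinned cells at day 28, where 16 held Angpt1 and 13 held Hgf, and in 1 of 35 at day 0, where 6 and 4 did.

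Promoters are shown for Hgf and Vegfa, whose largest UMI shares lay in basophil or mast cell-like and in neutrophil progenitor-like cells. They were chosen because the Hgf level of 1 cluster stood apart from the next cluster in both libraries, and low oxygen is the textbook inducer of Vegfa. The 250 bases before the start were taken from RefSeq (GRCm38.p6), where 5 of the 9 factors matched. Capitals mark AGATA, a core bound by GATA factors, or ACGTG, the core of the hypoxia response element, searched on both strands (TATCT and CACGT).
Hgf, chr5:16553245-16553494, plus strand: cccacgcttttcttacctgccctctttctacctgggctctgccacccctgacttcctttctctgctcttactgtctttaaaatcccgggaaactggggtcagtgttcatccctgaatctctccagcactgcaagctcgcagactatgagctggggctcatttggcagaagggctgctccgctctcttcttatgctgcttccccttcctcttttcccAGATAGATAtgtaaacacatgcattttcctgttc
Vegfa, chr17:46032378-46032627, minus strand: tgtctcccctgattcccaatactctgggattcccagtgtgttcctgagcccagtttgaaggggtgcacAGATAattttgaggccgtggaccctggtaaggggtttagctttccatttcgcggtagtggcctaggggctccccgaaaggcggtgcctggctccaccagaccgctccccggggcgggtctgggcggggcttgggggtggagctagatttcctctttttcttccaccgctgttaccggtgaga
Hgf held 2 AGATA matches that overlap in the run AGATAGATA near the start, and Vegfa held 1. The Igf1 window held the same run, also near the start. Neither the Hgf nor the Vegfa window held ACGTG, and bases further upstream were not searched. Of 32817 promoter windows of that length, 26.6% held AGATA and 16.6% held ACGTG, so these matches are common and describe only these letters.

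Igf1, a growth factor for muscle fibres and their stem cells, lies on the plus strand of chr10:87858265-87937042. Fibroblast-like cells (Dcn, Gsn, Col1a2) held 5 of 9 Igf1 UMIs at day 28 and 38 of 44 at day 0. The cluster had 4 cells at day 28 and 12 at day 0, too few for a ratio. Outside it, Igf1 was near absent: the highest mean level in clusters with at least 20 cells in both libraries was 1.71 CPM. Leaving out the fibroblast-like and neutrophil-like clusters left 4 UMIs at day 28 and 6 at day 0, and moved the ratio to 0.338. Thus the library difference in Igf1 rested on 5 cells at day 0.

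The fibroblast-like cells divided by factor. Among the 12 cells at day 0, 5 held 3 to 11 Igf1 UMIs and no Fn1, 6 held 3 to 26 Fn1 UMIs and no Igf1, and 1 held neither. At day 28, 3 of 4 cells held both factors (1 to 3 Igf1 and 1 to 5 Fn1 UMIs) and 1 held Fn1 without Igf1, at 14 UMIs. In the 3 cells with both, the markers of tenocytes (tendon cells) counted 30, 142 and 0 UMIs. Over the cluster these markers summed to 172 UMIs at day 28 (6 of 6 genes) and 12 at day 0 (2 of 6 genes). Whether the cells with both factors are another kind of cell was not tested. Pi16, a gene of adventitial fibroblasts, was present in 5 of the 6 day 0 cells with Fn1 alone (121 UMIs) and in the 1 such cell at day 28 (29 UMIs). It was at 0 in the 5 day 0 cells with Igf1 alone and in the 3 day 28 cells with both. The other genes of the fibroblast list were not read this way. Pi16 was also not limited to fibroblast-like cells. In neutrophil progenitor-like cells at day 0 it was the only gene of that list detected, at 22 UMIs. At day 0 the cells with Igf1 alone had 3052 to 6010 UMIs in all and those with Fn1 alone 3672 to 8544. These are single cells of 1 library each, not replicates.

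**Figure D4:**
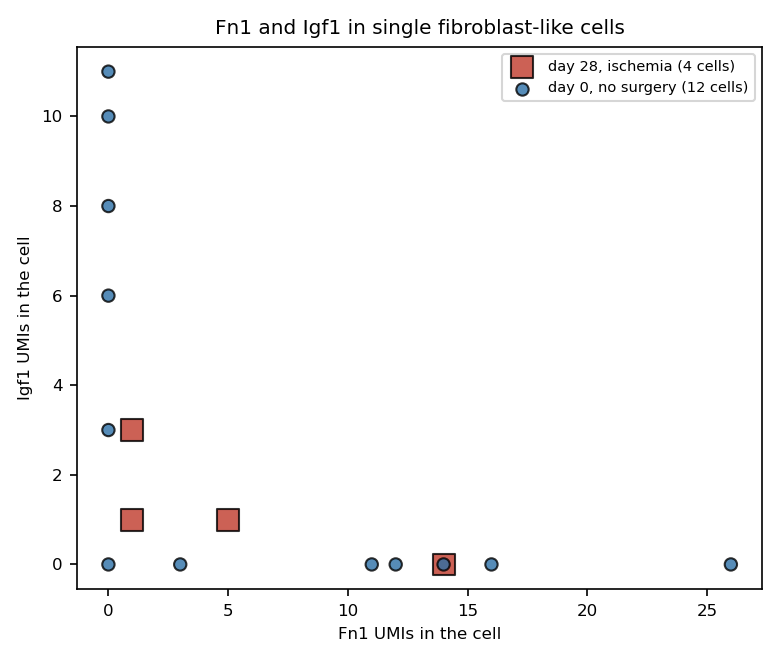
Igf1 UMIs (vertical axis) against Fn1 UMIs (horizontal axis) in each fibroblast-like cell, squares for the 4 cells at day 28 and circles for the 12 cells at day 0. The day 0 cells lie on one axis or the other, and 3 of the 4 day 28 cells lie off both axes. Tenocyte markers counted 30, 142 and 0 UMIs in these 3 cells.

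Pdgfb, which binds Pdgfrb on pericytes, lies on the minus strand of chr15:79995874-80014977 and was rare, with 21 UMIs at day 28 and 18 at day 0. The NK or cytotoxic lymphocyte-like cluster was led by Ccl5, Ms4a4b, Klrd1, Xcl1 and Cd3d. The naive CD8 T cell list scored next there (3.61 against 3.88), so the name does not separate NK cells from T cells. These cells held 5 of the Pdgfb UMIs at day 28 and 12 at day 0. Their level was 13.1 CPM at day 28 and 12.9 CPM at day 0, a ratio of 1.02 (0.281 to 3.11). They were 2.52% of cells at day 28 and 8.36% at day 0. The all-cell ratio of Pdgfb was 0.595 (0.302 to 1.18), and the makeup alone gave 0.379, as above. At equal depth 3.08% of them held Pdgfb at day 28 (2 of 65) and 3.57% at day 0 (7 of 196). Unthinned, these were 7.69% and 4.59%, at 4982 and 3927 UMIs per cell, and erythroid-like cells had 0 of 132 and 0 of 103 when thinned, with overlapping intervals.

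Tgfb1, the founding member of the transforming growth factor beta family, lies on the plus strand of chr7:25687002-25705077. It was found at 3200 UMIs in 57.1% of cells at day 28 (1472 of 2580) and 55.7% at day 0 (1329 of 2384). The unthinned shares, 88.4% and 68.7%, differed far more, beside median depths of 12214 and 4789 UMIs. Basophil or mast cell-like cells had 367 CPM of Tgfb1 at day 28 and 446 at day 0, and cluster 0 had 353 and 432 CPM. Among the clusters with at least 20 cells in each library, erythroid-like cells were lowest at 88.5 and 103 CPM, with a thinned share of 24.2% at day 28 and 24.3% at day 0. NK or cytotoxic lymphocyte-like cells had 160.4 and 167 CPM. The naive CD8 T cell-like cluster, with 10 cells at day 28 and 547 at day 0, had 62.7 and 127 CPM.

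Tgfb1 was lower at day 28 in all 11 compared clusters, with ratios of 0.628 to 0.963, and none passed 2-fold. The counting interval excluded 1 in 8 of them. The lowest ratio was in megakaryocyte or erythroid progenitor-like cells, with 287 CPM in the day 28 library and 457 CPM in the day 0 library. Plasmacytoid dendritic cell-like cells had 258 and 363 CPM, a ratio of 0.711 (0.584 to 0.864). All genes at 10 CPM shifted too: their median log2 ratio was below 0 in 10 of the 11 clusters, between -0.20 and 0.11. Beyond that median Tgfb1 was lower in 9 of 11 clusters, with log2 differences down to -0.51. The part of depth, which was higher at day 28, was not tested.

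Thbs1, encoding the matricellular protein thrombospondin 1, lies on the plus strand of chr2:118111876-118127133. Cluster 0, the Lyz2-high cells between the monocyte progenitor and the monocyte or macrophage lists, held 145 of 177 Thbs1 UMIs at day 28 (81.9%) and 27 of 49 at day 0 (55.1%). The level there was 25.4 CPM at day 28 (interval 21.4 to 29.8) and 11.5 CPM at day 0 (interval 7.59 to 16.8). The ratio of 2.20 (1.45 to 3.46) passed 2-fold, as did 2.35% of the 6560 genes read in this cluster, and 0.488% of them were at least 2-fold higher. Neutrophil-like cells (Camp, Ngp) held a further 6 UMIs in 1 of 5 cells at day 28 and 19 UMIs in 9 of 15 cells at day 0. Without them and the fibroblast-like cells the all-cell ratio of Thbs1 was 2.82.

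Without thinning, both the share of cells with Thbs1 and the UMIs per positive cell were higher at day 28 in cluster 0. At equal depth 6.71% of its cells held Thbs1 at day 28 (29 of 432, 4.54 to 9.50) and 5.16% at day 0 (11 of 213, 2.61 to 9.05), and the intervals overlap. Erythroid-like cells had 0 of 132 and 0 of 103. Unthinned, 60 cells (13.9%) held 145 UMIs at day 28 and 15 cells (7.04%) held 27 UMIs at day 0, at medians of 12436 and 10243 UMIs. The highest cell had 14 UMIs at day 28 and 6 at day 0. With all cells thinned the ratio was 1.45, under 2-fold.

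Finer clustering (resolution 1.2) divided cluster 0 into a low and a high Thbs1 group. In the group led by Lyz2, Ms4a6c and F13a1, Thbs1 was 16.1 CPM at day 28 (75 UMIs in 314 cells) and 2.08 CPM at day 0 (3 UMIs in 101 cells), a ratio of 7.74 (2.55 to 38.4). In the group led by Lyz2, Lgals3 and Tgfbi, which also carried the chemokine gene Ccl3, it was 62.6 CPM (70 UMIs in 122 cells) and 26.5 CPM (24 UMIs in 112 cells), a ratio of 2.36 (1.47 to 3.92). In unthinned counts Thbs1 was thus higher at day 28 in both groups. This split was chosen after seeing the data, and its groups were not thinned. Other markers moved in cluster 0 as well. The monocyte or macrophage list summed to 12393 CPM at day 28 and 20016 at day 0, and the conventional dendritic cell list to 143 and 855 CPM. The megakaryocyte or erythroid progenitor list summed to 22.7 CPM at day 28 (9 of 11 genes) and 6.82 CPM at day 0 (5 of 11), with Gp9 and Ppbp at 0 in both. The cluster named from that list held 4 Thbs1 UMIs (2.09 CPM) at day 28 and 0 at day 0. The part of these markers in the Thbs1 difference was not tested.

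Fn1, the gene of fibronectin, lies on the minus strand of chr1:71585520-71653200. Cluster 0 had 318 CPM at day 28 (1819 UMIs) and 359.6 CPM at day 0 (843 UMIs), a ratio of 0.885 (0.815 to 0.961). The next cluster, number 4 (Ms4a6c, Cd7, Lgals3), had 47.4 CPM at day 28 and 41.6 at day 0, which gives a ratio of 1.14 (0.786 to 1.68). Fibroblast-like cells, the classical makers of fibronectin, had 927 CPM at day 28 (21 UMIs in 4 cells) and 1425 CPM at day 0 (82 UMIs in 12 cells), yet these were 0.946% and 8.17% of all Fn1 UMIs. Most Fn1 UMIs thus lay in the Lyz2-high cells of cluster 0 in both libraries.

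At equal depth 55.8% of cluster 0 cells held Fn1 at day 28 (241 of 432, 51.0 to 60.5) and 65.3% at day 0 (139 of 213, 58.5 to 71.6), against 2.27% (3 of 132) and 0 of 103 erythroid-like cells. Unthinned, 81.0% and 84.5% of cluster 0 cells held it. Within cluster 0 the group led by Lyz2, Ms4a6c and F13a1 had 269.8 CPM of Fn1 at day 28 and 225 at day 0, with a ratio interval of 1.06 to 1.36. The group led by Lyz2, Lgals3 and Tgfbi had 509.8 and 565 CPM, a ratio of 0.902 (0.799 to 1.02). The direction of the small Fn1 difference thus turned with the clusters drawn. Free RNA from a single source keeps its genes in a constant ratio in every cell type, so Fn1 was set against Lyz2, a marker of cluster 0. Per 1000 Lyz2 UMIs, Fn1 counted 36.1 at day 28 and 25.0 at day 0 in cluster 0, 55.7 and 40.0 in cluster 4, and 19.5 and 5.82 in monocyte progenitor-like cells. In basophil or mast cell-like cells it was 125 at day 28 (32 Fn1 UMIs) and 294 at day 0 (5 UMIs). In erythroid-like cells it was 72.4 at day 28 (22 Fn1 UMIs) and 6.80 at day 0 (1 UMI). Clusters 3, 5, 7 and 14, with 3 to 34 Fn1 UMIs each, had 29.7 to 31.9 at day 28, near the value of cluster 0, while at day 0 clusters 3, 5 and 14 had 17.1, 9.77 and 0, and cluster 7 had 3 Fn1 UMIs beside 30 Lyz2 UMIs. The ratio thus was like that of cluster 0 in some clusters and not in others, and the part of free RNA was not tested.

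**Figure D5:**
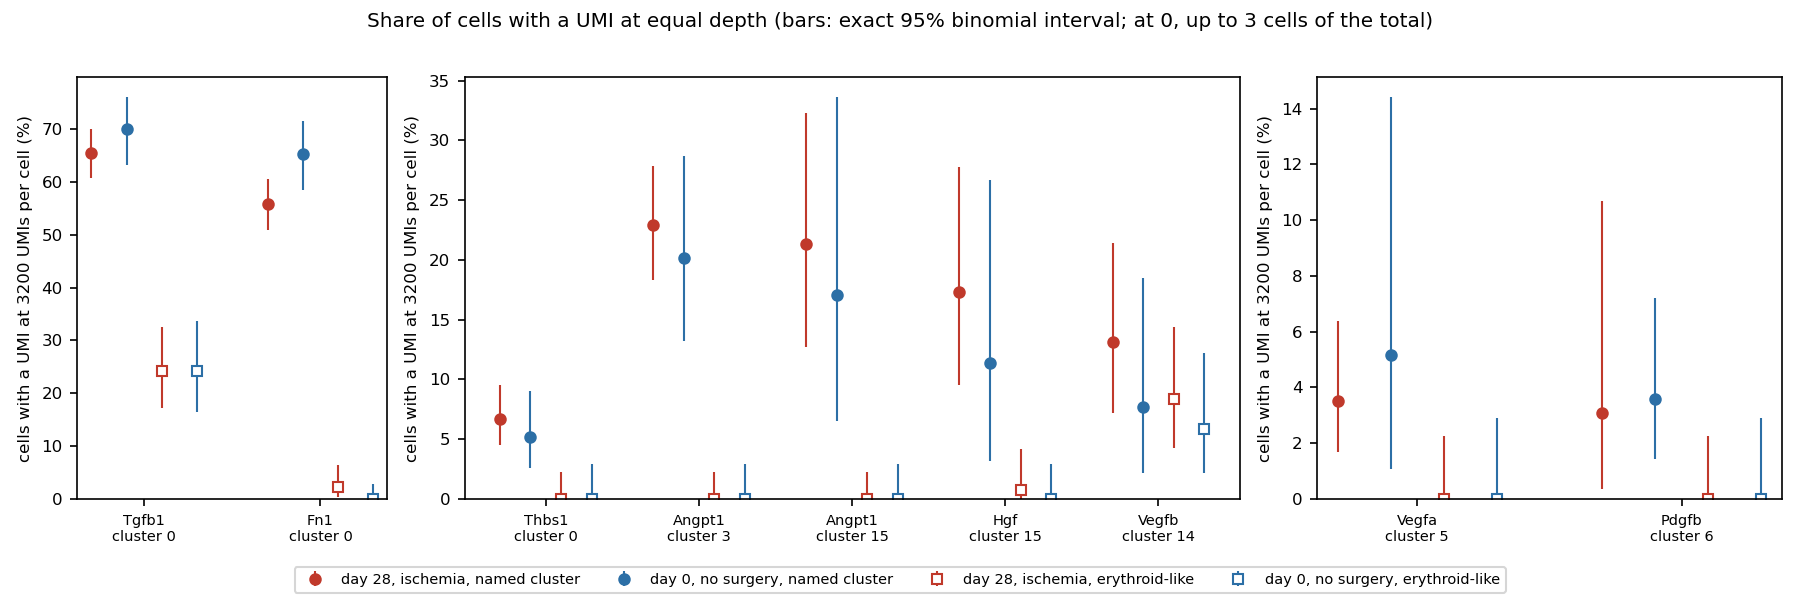
Share of cells with a UMI after thinning every cell to 3200 UMIs (percent, vertical axis, a separate scale in each panel), at day 28 (red) and day 0 (blue). Each factor except Igf1 is shown in a leading cluster (filled; Angpt1 in clusters 3 and 15) and in erythroid-like cells (open). Bars are exact 95% binomial intervals, or at 0 the share that 3 cells would make. The bars of the leading cluster and of erythroid-like cells overlap for Vegfa, Vegfb and Pdgfb in both libraries and for Thbs1 at day 0. At 0 the exact interval reaches further than the drawn bar, and for Hgf at day 0 it overlaps that of the leading cluster.

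How many factors were found in a cell depended on the depth, since thinning lowered the share of positive cells of each factor. At equal depth 32.8% of cells at day 28 and 38.9% at day 0 held none of the 9, 52.4% and 51.2% held 1, and 12.9% and 9.10% held 2. Cells with 3 factors were 1.71% at day 28 and 0.629% at day 0. Cells with 4 numbered 2 at day 28 and 3 at day 0, and none held 5. Fn1 and Thbs1 lay together in cluster 0, where most cells held Fn1: of the 29 cells with Thbs1 at day 28, 25 also held Fn1, and of the 11 at day 0, 10 did.

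The genes whose levels were most like each factor were taken over the 35 cluster and library sums of at least 20 cells, which leave out the fibroblast-like cluster. Among 5097 genes, Hgf levels were closest to Alox5, Cd200r3, Fcer1a and Alox15, with Pearson correlations of 0.98 to 0.99. Angpt1 was closest to Slc22a3 (0.96) and Gata2 (0.90), Pdgfb to Gzmm (0.90) and Gzma (0.88), Fn1 to Ccl2 (0.91), Tgfbi (0.90) and Clec4b1 (0.90), and Thbs1 to Ccl2 (0.87) and Chil3 (0.86). Tgfb1 was closest to Hhex (0.85). For Vegfa and Vegfb the closest genes were Nudt3 (0.75) and Slc25a1 (0.70). The Igf1 sums did not pass 3.42 CPM, so its neighbours carry little. The sums share libraries and cell mixtures and give a description only.

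Receptors and partners of the factors, from 8 lists of 71 genes, were read by the same rule over all cells. Of the VEGF, angiopoietin, IGF, HGF and PDGF lists, 1, 0, 2, 2 and 0 genes reached 10 CPM and 0 passed 2-fold. Of the transforming growth factor beta list 8 of 19 could be read, 0 were higher and 2 were lower, the receptor gene Tgfbr2 and the inhibitor gene Smad7, against 5.22% of all genes that were lower. Smad7 had 31.4 CPM at day 28 and 73.7 at day 0, while in NK or cytotoxic lymphocyte-like cells it had 245 and 173 CPM. Of the fibronectin receptor list 4 of 7 could be read and 1 was lower, the proteoglycan gene Sdc4, with 21.9 CPM at day 28 and 60.1 at day 0. Sdc4 had 371 CPM at day 0 in a small pre-B cell-like cluster of 68 cells that had no cell at day 28. Of the thrombospondin list 1 of 7 could be read, the receptor gene Cd47, with 443 CPM at day 28 and 425 at day 0. Igf1r, the receptor of Igf1, had 27.3 CPM at day 28 and 14.2 at day 0, which gives a ratio of 1.92 (1.68 to 2.20), and in neutrophil progenitor-like cells 57.5 and 30.8 CPM. Nrp1, a VEGF co-receptor, was highest in cluster 0, at 89.5 CPM at day 28 and 97.7 at day 0. Pdgfrb, the Pdgfb receptor, had 16.7 and 16.6 CPM in cluster 3.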

How the data were processed

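Per the submitters' processing notes, the reads of both libraries went through Cell Ranger 2.1.1 and STAR (version not given in the sources used here), with mm10 as the build. The authors deposited UMI counts per gene and barcode without normalisation, and every value is a whole number. The lowest barcode total was 4175 at day 28 and 3001 at day 0.

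Cells needed 500 detected genes and no more than 10% mitochondrial UMIs, which removed 17 barcodes at day 28 and 2 at day 0. Scrublet marked 0.379% and 0.0750% by its own threshold, under the 0.5% taken as a minimum, so the top-scoring 56 and 57 barcodes, 0.8% per 1000, were left out. Cells were scaled to 10000 UMIs, log-transformed and clustered in scanpy 1.11.5 (2000 variable genes without the factors and their pathway genes, 30 components, 20 neighbours, leidenalg 0.10.2, resolution 0.8, seed 1), with no integration. A cluster took the name of the best of 25 marker lists with at least 3 detected markers, unless another list had more genes among its 10 leading genes.

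UMIs were summed per cluster and library and given as CPM with exact Poisson intervals, ratios with exact conditional binomial intervals and shares with Clopper-Pearson intervals (scipy 1.17.1). A gene was called where its ratio was at least 2 or at most 0.5 at a mean of 10 CPM, and a gene at 0 in a library was set at 3 UMIs there. Shares were taken after thinning each cell to 3200 UMIs, and shallower cells (0 at day 28, 225 at day 0) were not used. The ratio and interval step was tested on simulated Poisson counts, which carry counting error only. Summing per cluster and the calling rule were not part of that test. The text names the 9 factors, the leading genes of each pathway list and the 4 genes most like each factor. The factors and all lists were chosen with earlier results of these data known. Alternatives covered scaling, depth, weighting, doublets, mitochondrial filter, single cells, resolution and clustering genes. Gene positions are from GENCODE M21. UMIs limit amplification bias, but intervals and floors cover counting error only.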

Additional observations from a re-analysis of the deposited data

How the results depend on the processing

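With 1 library a group, leaving out a replicate was not possible, and the main limits are that single pair of libraries, the lower depth at day 0 and the small counts of Igf1, Pdgfb and Hgf. No paired analysis was possible because each group has 1 library. All values here are ratios of day 28 over day 0. As the mean of per-cell CPM, the all-cell ratio moved to 3.20 for Vegfa, 1.52 for Vegfb, 1.95 for Angpt1, 1.56 for Hgf, 1.03 for Tgfb1 and 1.62 for Fn1. As an equal-weight mean over clusters it moved to 1.24 for Vegfa, 1.11 for Vegfb, 0.750 for Angpt1, 0.791 for Tgfb1 and 0.994 for Fn1. With cells thinned to 3200 UMIs it moved to 2.02 for Hgf, 0.989 for Tgfb1 and 1.52 for Fn1. When thinned, 5 of 27 factor and cluster pairs passed 2-fold. They were Vegfb in clusters 4 (2.41), 5 (0.408), 6 (3.02) and 12 (0.431) and Angpt1 in cluster 14 (0.216). The share of all genes past 2-fold was not taken on thinned counts, so this count has no background beside it. With cells of at least the lowest day 28 total the all-cell ratio was 0.874 for Tgfb1 and 0.949 for Fn1, and with median-of-ratios scaling 0.995 for Tgfb1. Without the fibroblast-like and neutrophil-like clusters, an alternative chosen after seeing the data, it was 0.338 for Igf1 and 2.82 for Thbs1. The other 62 all-cell values moved less than their counting interval. Within clusters 261 values were labelled the same and 22 moved. These include the numbers of pairs past 2-fold, judged by a fold limit, while the ratios were judged by their interval. Thbs1 in cluster 0 ran between 1.45 (thinned) and 7.74 (resolution 1.2). Angpt1 in megakaryocyte or erythroid progenitor-like cells reversed to 1.86 at resolution 0.4, but the cluster matched there held mostly erythroid-like cells (Jaccard index 0.19 with the progenitor-like cells and 0.76 with the erythroid-like ones). It was 0.216 when thinned and was 0.986 per marker UMI, which was also chosen after seeing the data. Tgfb1 ran between 0.628 and 1.06 in the 11 compared clusters under the alternatives that gave a value there. Cluster 14 gave none with doublets kept or with the factors among the clustering genes, where its match had 49 and 48 cells at day 0, and the 5% mitochondrial filter was read over all cells alone. The share of gene and cluster pairs past 2-fold was 7.78%, 3.21% at a mean of 50 CPM and 15.7% with no filter. The causes were not tested.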
